A study of Mus musculus with 18 samples.

Results

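The genes of N-glycosylation, the pathway that tunicamycin blocks, were followed in mouse cells under endoplasmic reticulum (ER) stress and heat shock (HS). The 40 genes were taken by name, from the enzymes that supply the sugars to those that trim the glycan on the finished protein, by a rule that uses no measured value. All 40 were listed among the 20207 genes of every sample, and all 40 had at least 1 read in each of the 18 samples and so belonged to the 12731 genes tested.

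The cells were NIH3T3, an established mouse embryonic fibroblast line. They carried a destabilizing domain (DD) fused to superfolder GFP, and a population with high levels of the fusion protein had been selected by sorting. S1, the ligand that keeps the DD folded, was present in all groups, the control included. mRNA was sequenced in 6 groups of 3 samples, which were an unstressed control at 0 min, HS at 45 and 135 min, and tunicamycin at 45, 135 and 405 min. These groups hold no unstressed sample at 45, 135 or 405 min. In comparisons with the control, and between times, stress and elapsed time therefore cannot be told apart. Nothing in the labels ties the replicates to separate cultures, so that the p-values measure the spread between these samples, which may be technical.

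N-glycosylation builds an oligosaccharide on the lipid dolichol in the ER membrane, first on the cytosolic face from UDP-N-acetylglucosamine and GDP-mannose, then on the luminal face from mannose and glucose carried by dolichol phosphate. The oligosaccharyltransferase moves the finished oligosaccharide onto asparagines of proteins that enter the ER, and glucosidases, a glucosyltransferase and a mannosidase then trim it while the protein folds. Tunicamycin resembles the substrates of Dpagt1, the enzyme of the first step on dolichol, and blocks it. Secreted proteins of fibroblasts such as fibronectin and the procollagens carry N-glycans.

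Between 33415592 and 66478268 reads were assigned to genes per sample. Levels are given as RPKM, which scales the reads of a gene by its length and by the library total, as deposited, and fold changes come from the estimated read counts. Vim, Col1a1 and Fn1, which mark fibroblasts, were at 649 RPKM or more in every sample, whereas Epcam, Cdh1, Krt8, Krt18, Ptprc, Cd3e, Pecam1, Cdh5 and Kdr, which mark epithelial, blood and endothelial cells, did not exceed 0.24 RPKM. The other fibroblast markers listed were Col1a2 (480 to 2250 RPKM), Thy1 (105 to 193 RPKM), S100a4 (61.4 to 3220 RPKM), Col3a1 (39.0 to 434 RPKM) and Pdgfrb (10.2 to 71.9 RPKM). Cd68, listed as a blood cell marker, was at 3.72 to 7.61 RPKM. In 4 libraries, which were HS 45 min replicates 1 and 2, HS 135 min replicate 2 and tunicamycin 135 min replicate 1, log2 CPM relative to the control mean rose by 0.64 to 0.972 for each 10 percentage points of transcript GC content, against -0.146 to 0.355 in the other 14. The controls also differed among themselves, with a slope of 0.287 in replicate 1 and of -0.14 and -0.146 in replicates 2 and 3. All 3 enter every comparison with the control. As levels are relative to the library total of a bulk sample, fewer cells that express a gene and less RNA per cell cannot be told apart.

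In unstressed cells the members spanned a wide range of levels per length. Rpn2, a subunit of the oligosaccharyltransferase, was the most abundant at 143 ± 17.5 RPKM (SD, n = 3). It was followed by Ddost (126 ± 14.7 RPKM) and Dad1 (101 ± 5.8 RPKM), subunits of the same enzyme, then by Prkcsh (91.0 ± 2.2 RPKM), a subunit of glucosidase II. Rpn2 and Ddost did not differ beyond their spread. The lowest were Alg13 (1.17 ± 0.273 RPKM) and Alg6 (1.42 ± 0.381 RPKM), glycosyltransferases of the cytosolic and luminal faces. Dpagt1 stood at rank 18 of the 40.

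Dpagt1 (chromosome 9 of mm9, 44134928 to 44141683) had 20.7, 19.1 and 18.8 RPKM in control replicates 1 to 3, and 42.1, 33.1 and 35.8 RPKM at 405 min of tunicamycin. All 3 samples at 405 min therefore lay above all 3 controls, and the gene rose (log2 fold change 1.01, standard error 0.132, edgeR adjusted p = 0.000594). The call held when any 1 of the 6 samples was left out, with log2 fold changes of 0.91 to 1.09, but not in a fit of all 6 groups that shares 1 estimate of the spread (adjusted p = 0.104, edgeR). At the earlier times and under HS the samples scattered widely. Dpagt1 had 18.3, 16.0 and 7.83 RPKM at 45 min of tunicamycin and 6.84, 17.4 and 17.4 RPKM at 135 min. Under HS it had 4.91, 5.19 and 19.8 RPKM at 45 min and 17.5, 6.01 and 10.6 RPKM at 135 min. None of these 4 groups passed the test against the control. The log2 fold changes were -0.56 (95% interval -1.21 to 0.08) and -0.46 (-1.18 to 0.26) at 45 and 135 min of tunicamycin, and -0.89 (-1.97 to 0.19) and -0.64 (-1.36 to 0.08) at 45 and 135 min of HS. Dpagt1 lay between 4.91 and 6.84 RPKM in the 4 libraries that follow GC content most strongly, below its 7.83 to 42.1 RPKM in the other 14. With those 4 left out, the log2 fold change at 45 min of HS was 0.01 from the single HS sample that remained.

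The members whose log2 of the mean RPKM, over the 6 groups, was most like that of Dpagt1 were Rpn2 (Pearson r = 0.997), Ddost (r = 0.995) and Uap1 (r = 0.992). With the mean of log2 RPKM in its place, these 3 were also the most like it. These are descriptions over 6 points that come from the same libraries for all genes.

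At 405 min of tunicamycin, 22 of the 40 members (55.0%) rose relative to the control and 0 fell, at an adjusted p under 0.05 in edgeR's quasi-likelihood test. Among all genes tested, 23.3% rose and 23.5% fell in this comparison. Of the members, 1 had an unadjusted p under 0.05 and a lower level, against 3488 of the 12731 genes tested. DESeq2 also called 22 members higher and 0 lower, against 24.7% and 24.8% of all genes. The median log2 fold change of the members was 0.60, against -0.01 for all genes. The summed level of the 40 genes was 1728 ± 89.5 RPKM at 405 min and 1186 ± 26.4 RPKM in the control (SD, n = 3), and the 3 samples at 405 min (1648 to 1825 RPKM) lay above all others. Without control replicate 1, the members called were 26 higher and 4 lower (Alg11, Alg13, Stt3a and Tusc3), and 31.6% and 30.5% of all genes were called.

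**Figure D1:**
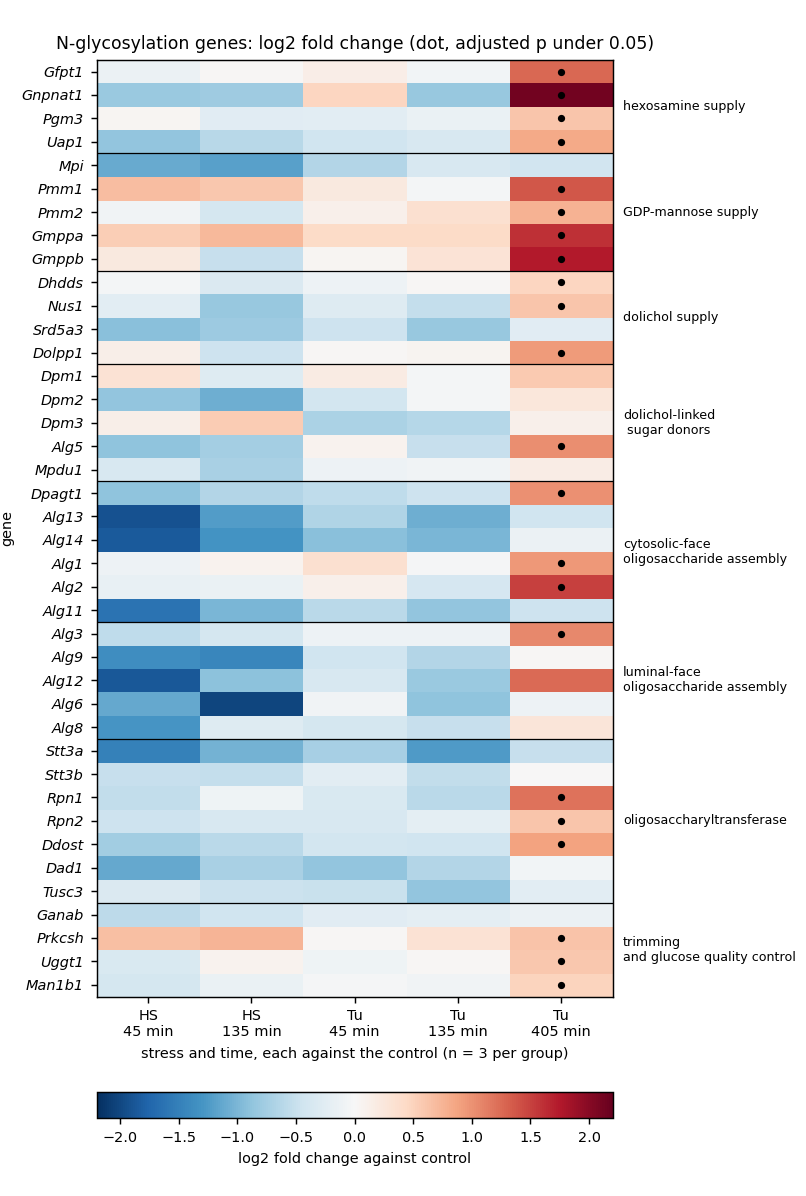
Log2 fold change against the control (color, red higher and blue lower) for the 40 genes in pathway order (rows, grouped by step) under HS and tunicamycin (Tu) at each time (columns, n = 3 per group). Dots mark an adjusted p under 0.05, and all 22 stand in the column of tunicamycin at 405 min.

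All 4 genes that supply UDP-N-acetylglucosamine, the sugar donor that Dpagt1 uses, rose, with a median log2 fold change of 1.05. Gfpt1, which commits fructose phosphate to this route, had 10.2, 13.6 and 13.8 RPKM in the controls and 30.4, 27.8 and 26.5 RPKM at 405 min, so the groups were far apart (log2 fold change 1.27, standard error 0.131, edgeR adjusted p = 0.000196). Uap1, which makes UDP-N-acetylglucosamine itself, had 13.1, 15.9 and 17.0 RPKM against 29.2, 24.7 and 23.4 RPKM (log2 fold change 0.84, standard error 0.130, edgeR adjusted p = 0.00129). The acetyltransferase Gnpnat1 had the largest fitted change of the 40, from 1.501, 4.74 and 4.50 RPKM in the controls to 12.4, 13.7 and 17.6 RPKM (log2 fold change 2.13, standard error 0.373, edgeR adjusted p = 0.00238). Its lowest control was replicate 1, and the log2 fold change ran from 1.78 to 2.36 when single samples were left out. The mutase Pgm3 rose by less, at a log2 fold change of 0.61 (edgeR adjusted p = 0.0165), and lost its call without tunicamycin 405 min replicate 1.

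Of the 5 genes that supply GDP-mannose, 4 rose, and the step had a median log2 fold change of 1.36. Gmppb, the catalytic subunit of GDP-mannose pyrophosphorylase, had the smallest p of all members. It had 10.4, 9.89 and 9.77 RPKM in the controls and 31.3, 32.3 and 31.3 RPKM at 405 min (log2 fold change 1.75, standard error 0.122, edgeR adjusted p = 3.53e-05). Its regulatory partner Gmppa had 18.2, 18.5 and 20.5 RPKM against 52.8, 51.9 and 58.8 RPKM (log2 fold change 1.61, standard error 0.122, edgeR adjusted p = 5.09e-05). Replicates were close together in both genes and the groups did not overlap. The phosphomannomutases Pmm1 and Pmm2 rose by log2 fold changes of 1.36 and 0.77. Mpi, which makes mannose phosphate from fructose phosphate at the entry of the route, had 22.9, 17.2 and 17.5 RPKM in the controls and 16.1, 11.4 and 13.3 RPKM at 405 min (log2 fold change -0.42, edgeR adjusted p = 0.0909). Of the alternatives run, it was called lower only with total counts in place of TMM (edgeR), a scaling under which the median of all genes was -0.11.

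Of the 4 genes of dolichol supply, 3 rose. Dolpp1, the phosphatase that returns dolichyl pyrophosphate to the pool after each transfer, had 8.47, 9.26 and 8.44 RPKM in the controls and 15.8, 14.9 and 16.4 RPKM at 405 min (log2 fold change 0.94, standard error 0.120, edgeR adjusted p = 0.000532). Dhdds and Nus1 together form the prenyltransferase that makes the dolichol chain. Dhdds had 9.56, 10.8 and 11 RPKM against 13.6, 14.4 and 13.1 RPKM (log2 fold change 0.48, standard error 0.115, edgeR adjusted p = 0.0098), a small and evenly shared rise. Nus1 rose by a log2 fold change of 0.61, and both lost their calls without tunicamycin 405 min replicate 2. Srd5a3, the polyprenol reductase, had 6.86, 7.18 and 8.43 RPKM in the controls and 7.04, 5.41 and 5.39 RPKM at 405 min, which overlap (log2 fold change -0.25, edgeR adjusted p = 0.202).

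Among the 5 genes of the dolichol-linked sugar donors, Alg5 was called. It makes dolichol phosphate glucose and had 9.72, 12.2 and 15.2 RPKM in the controls and 26.1, 22.9 and 21.9 RPKM at 405 min (log2 fold change 1.03, standard error 0.157, edgeR adjusted p = 0.00124). The call was lost in the shared fit of all groups (adjusted p = 0.0659, edgeR). Dpm1, the catalytic subunit of dolichol phosphate mannose synthase, had 3.44, 8.68 and 7.07 RPKM against 8.12, 8.78 and 9.84 RPKM (log2 fold change 0.58, standard error 0.282, edgeR adjusted p = 0.123), and its groups overlap. The other subunits, Dpm2 and Dpm3, and Mpdu1, which is needed to use both donors, had log2 fold changes of 0.11 to 0.25 and did not pass the test.

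**Figure D2:**
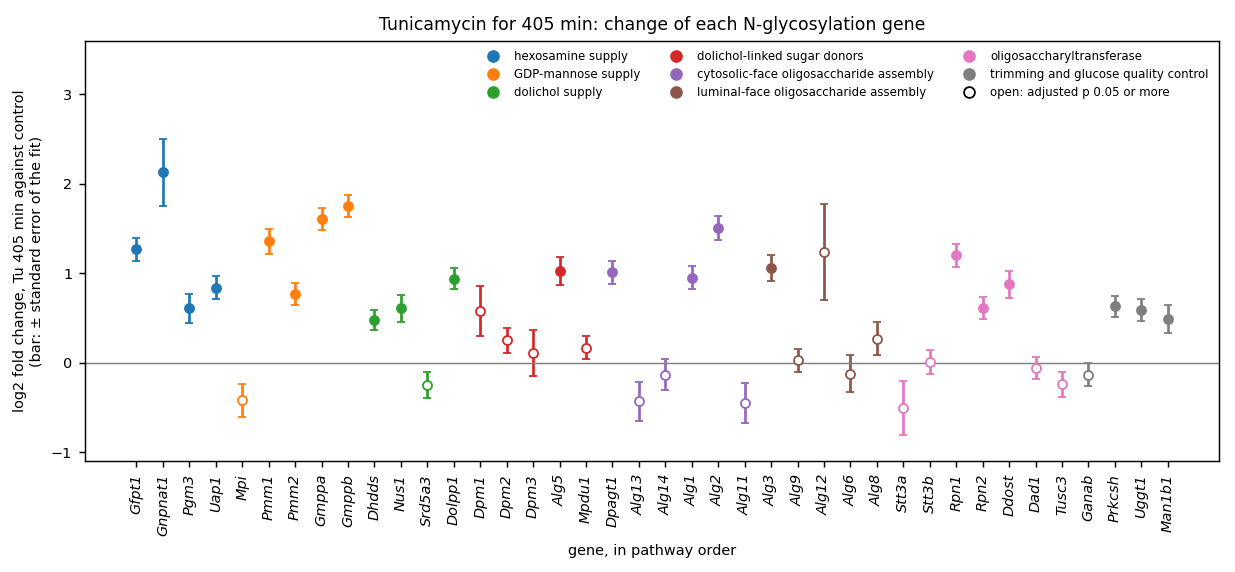
Log2 fold change of each of the 40 genes at 405 min of tunicamycin against the control (y axis), with the standard error of the fit as a bar, in pathway order (x axis) and colored by step, n = 3 per group. Filled points have an adjusted p under 0.05. The points run from -0.50 (Stt3a) to 2.13 (Gnpnat1), and the 10 genes below 0 are open and come from 6 steps, Mpi of sugar supply and Srd5a3 of dolichol supply among them.

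On the cytosolic face, 3 of 6 genes rose. Besides Dpagt1 these were Alg1 and Alg2, mannosyltransferases that act after it. Alg2 had 5.91, 7.84 and 7.37 RPKM in the controls and 20.8, 17.1 and 18.6 RPKM at 405 min (log2 fold change 1.51, standard error 0.133, edgeR adjusted p = 9.66e-05). Alg1 rose by a log2 fold change of 0.95 (edgeR adjusted p = 0.000733). Alg13 and Alg14, which together add the second N-acetylglucosamine, and Alg11, which adds the last mannoses on this face, did not rise. Their log2 fold changes were -0.43, -0.13 and -0.45. The enzymes just before and just after the Alg13 and Alg14 step were thus called higher while those of the step itself were not, and the differences between these genes were not tested.

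On the luminal face, Alg3 was called among 5 genes. This mannosyltransferase, the first to act in the lumen, had 22.9, 19.9 and 18.3 RPKM in the controls and 42.2, 38.0 and 39.8 RPKM at 405 min (log2 fold change 1.06, standard error 0.143, edgeR adjusted p = 0.000697). The glucosyltransferases Alg6 and Alg8 had log2 fold changes of -0.12 and 0.27, and the mannosyltransferase Alg9 had 0.03. Alg12, a further mannosyltransferase, had 46.6, 10.7 and 12.4 RPKM in the controls and 66.0, 44.0 and 49.8 RPKM at 405 min. The control samples were far apart, and replicate 1 lay above the lowest sample at 405 min. The log2 fold change was 1.24 (standard error 0.540, edgeR adjusted p = 0.0906). Without control replicate 1 it was 2.32 (adjusted p = 3.34e-06, edgeR), and over the other samples left out singly it ran from 0.87 to 1.35 without a call. It was also called with the replicate block (1.61, adjusted p = 0.0189, edgeR) and with 1 surrogate variable (1.34, adjusted p = 0.0183, edgeR), and not in the other alternatives run.

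Alg12 was also singled out, after its values were seen, for its promoter. The ERSE, the element to which ATF6 binds with the factor NF-Y, is read as CCAAT, 9 bases of any kind and CCACG. It was found in 39 of 32851 RefSeq promoter windows (0.119%), on either strand, and in 1 of the 35 windows of the 34 members that the RefSeq table holds, that of Alg12. As Alg12 was not called in the main comparison, no member was there both called at 405 min and matched by the ERSE, the ERSE-II or the C/EBP-ATF composite element. In the 3 alternatives that called Alg12, it would be. The 250 bases before the start of Alg12 (GRCm38.p6, chr15:88819319-88819568, minus strand, read 5′ to 3′) are shown with the match in capitals, 220 to 202 bases before the start.
Alg12: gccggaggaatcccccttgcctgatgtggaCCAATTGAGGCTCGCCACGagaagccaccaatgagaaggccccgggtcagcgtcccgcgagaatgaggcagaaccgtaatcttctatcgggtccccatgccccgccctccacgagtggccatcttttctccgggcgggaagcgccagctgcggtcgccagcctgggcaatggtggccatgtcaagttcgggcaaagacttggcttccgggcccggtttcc
The same stretch faces another gene. Creld2, an ER protein known to rise under ER stress, begins 327 bases from the start of Alg12 on mm9 (chromosome 15, 88635674 to 88649748 for Alg12 and 88650076 to 88657111 for Creld2) and is read the other way. Creld2 had 39.4 to 44.6 RPKM in the controls and 1346 to 1419 RPKM at 405 min (log2 fold change 5.13, edgeR adjusted p = 1.18e-06). Its controls were close together where those of Alg12 were not.

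The core of the UPRE, TGACGTG, to which XBP1 and ATF6 can bind, was in 2.01% of all windows and in those of Dhdds, Dpm2 and Uap1, of which Dhdds and Uap1 were called at 405 min. The ERSE-II (ATTGG, 1 base and CCACG) was in 0.0365% of all windows and the C/EBP-ATF composite element (TGATGNAA) in 3.97%, and neither was in a window of a member. CCACG alone, which the ERSE, the ERSE-II and other sites contain, was in 32.8% of all windows. It was in those of 18 of the 34 members that the table holds, and of 10 of the 18 called members among them. The table has no window for Alg2, Alg11, Dpagt1, Gmppb, Gnpnat1 and Tusc3. The UPRE core of Uap1 lies after the start. The window of Dhdds is shown as the only called member whose UPRE core lies before the start, 9 to 3 bases upstream (GRCm38.p6, chr4:134000883-134001132, minus strand, read 5′ to 3′, match in capitals).
Dhdds: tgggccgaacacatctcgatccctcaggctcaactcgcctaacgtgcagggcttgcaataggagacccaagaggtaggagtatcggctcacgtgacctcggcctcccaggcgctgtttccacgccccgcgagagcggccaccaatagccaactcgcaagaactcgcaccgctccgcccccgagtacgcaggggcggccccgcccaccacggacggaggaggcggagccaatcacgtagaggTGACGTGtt
A match says that these letters are present and not that a factor binds there.

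In the oligosaccharyltransferase, 3 of 7 genes rose, and the catalytic subunits were not among them. Rpn1, a subunit that brings substrates to the catalytic core, had 66.5, 77.6 and 83.6 RPKM in the controls and 187, 154 and 151 RPKM at 405 min (log2 fold change 1.20, standard error 0.132, edgeR adjusted p = 0.000264). Ddost had 143, 117 and 118 RPKM against 228, 202 and 227 RPKM (log2 fold change 0.88, standard error 0.150, edgeR adjusted p = 0.00205). Both sets of groups were well separated. Rpn2 rose by a log2 fold change of 0.61 (edgeR adjusted p = 0.00484). The catalytic subunit Stt3a, which acts during translocation, had 15.7, 30.5 and 38.7 RPKM in the controls and 25.5, 15.9 and 14.8 RPKM at 405 min (log2 fold change -0.50, 95% interval -1.19 to 0.19). Stt3b, which acts on sites that were skipped, had 30.5, 34.2 and 36.2 RPKM against 38.3, 28.2 and 29.0 RPKM (log2 fold change 0.01, 95% interval -0.30 to 0.31). Samples of control and tunicamycin overlap in both genes. Both intervals include changes in either direction. Dad1 and Tusc3 had log2 fold changes of -0.06 and -0.24.

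**Figure D3:**
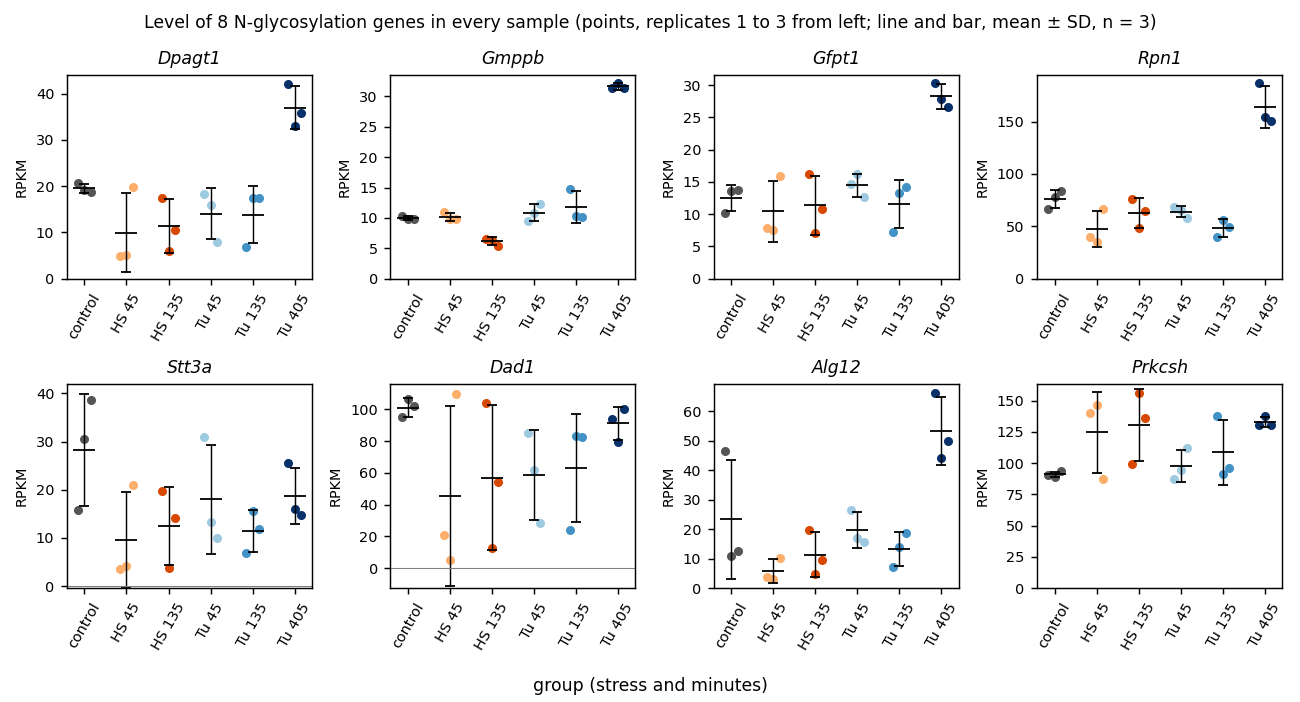
RPKM (y axis) of 8 genes of the pathway in every sample, by group (x axis, stress and minutes). Points are the 3 replicates of a group, and the line and bar give the mean and SD. Dpagt1, Gmppb, Gfpt1 and Rpn1 are higher in all samples at 405 min of tunicamycin than in the controls, whereas Stt3a and Dad1 are not, and control replicate 1 of Alg12 lies at 46.6 RPKM.

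Of the 4 genes that trim the glycan or return glucose to it, 3 rose, each by less than 1 on the log2 scale. Prkcsh, the noncatalytic subunit of glucosidase II, had 90.5, 89.1 and 93.4 RPKM in the controls and 131, 137 and 130.3 RPKM at 405 min (log2 fold change 0.63, standard error 0.115, edgeR adjusted p = 0.00276). The shared fit did not call it (adjusted p = 0.116, edgeR), and it had 138 to 156 RPKM in the 4 libraries that follow GC content most strongly, more than in any other library. Uggt1, the sensor that puts glucose back on misfolded glycoproteins, had 18.1, 18.8 and 18.6 RPKM against 30.6, 23.1 and 25.2 RPKM (log2 fold change 0.59, standard error 0.126, edgeR adjusted p = 0.00586). Man1b1, the ER mannosidase that marks glycoproteins for degradation, was called with a log2 fold change of 0.49 (edgeR adjusted p = 0.0312) and lost the call in 4 of the 6 fits that left out a sample. Ganab, the catalytic partner of Prkcsh, had a log2 fold change of -0.13 (95% interval -0.43 to 0.16).

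The 22 members called had a median transcript GC content of 52.6%, the 18 others 48.6%, and all genes tested 50.6%. With an offset for GC content, an alternative chosen after the data were seen, 22 members were called higher, of which 21 were called without it. Man1b1 was lost and Dpm1 gained, in a fit that called 26.8% of all genes higher and 26.4% lower. Exons of 9 members overlap those of another gene in the GENCODE annotation of the same build, among them the called genes Alg1, Dolpp1, Gmppb, Man1b1, Pgm3, Pmm2 and Rpn2. Whether the counting used strand is not given, so that reads of these genes may include those of their neighbours.

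The time between 135 and 405 min of tunicamycin was compared directly. Of the 40 members, 26 (65.0%) were higher at 405 than at 135 min and 0 were lower (edgeR, adjusted p under 0.05), against 21.4% and 22.4% of all genes. Of the members, 0 had an unadjusted p under 0.05 and a lower level, against 3374 of the 12731 genes tested. DESeq2 called 29 members higher and 0 lower, against 23.1% and 23.5% of all genes. The median log2 fold change was 0.73 for the members and -0.01 for all genes. The largest fitted changes were those of Gnpnat1 (2.94), Alg12 (2.03), Alg2 (1.85) and Rpn1 (1.77). Alg12 had 7.13, 13.8 and 18.7 RPKM at 135 min, below all 3 samples at 405 min (standard error 0.301, edgeR adjusted p = 0.00156). Dpagt1 had a log2 fold change of 1.44 and rose (standard error 0.299, edgeR adjusted p = 0.0066). Positive log2 fold changes were found for 39 of the 40 members. They included all 7 genes of the oligosaccharyltransferase, at 0.52 to 1.77, of which 5 were called, Stt3b and Tusc3 among them. Tunicamycin 135 min replicate 1 is among the libraries that follow GC content. Without it 30 members were called higher and 0 lower, and the shares of all genes were 32.2% and 31.7%.

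At the earlier times and under HS, 0 of the 40 members passed the test against the control in either direction. At 45 min of tunicamycin 4.01% of all genes were called higher and 2.17% lower. Unadjusted p-values under 0.05 were found for 2 members with higher and 10 with lower levels, against 1791 and 1469 of the 12731 genes tested. DESeq2 called 1 member higher and 3 lower, against 7.63% and 6.84% of all genes. At 135 min of tunicamycin 0.126% of all genes were called higher and 0.00785% lower. There 1 higher and 9 lower members had an unadjusted p under 0.05, against 1288 and 1081 of all genes. DESeq2 called 0 and 3 members, and 2.58% and 2.64% of all genes. At 135 min of HS 4.75% of all genes were called higher and 2.64% lower. There 2 and 9 members had an unadjusted p under 0.05, against 2054 and 1721 of all genes. DESeq2 called 0 and 5 members, and 9.68% and 7.28% of all genes. At 45 min of HS 0.0% of all genes were called in either direction. There 1 and 9 members had an unadjusted p under 0.05, against 1568 and 912 of all genes. DESeq2 called 0 and 0 members, and 3.03% and 0.511% of all genes. With total counts in place of TMM, the calls over all genes were 878 higher and 180 lower at 45 min of tunicamycin, against 510 and 276 with TMM, and 498 and 426 at 135 min of HS, against 605 and 336. The shares of all genes also moved with single libraries. When each of the 6 samples was left out in turn, 10 (without control replicate 3) to 1535 (without HS replicate 1) genes were called higher and 0 to 932 lower at 135 min of HS. At 45 min of HS, 2737 were called higher and 3049 lower without replicate 3, and 0 in the other 5 fits. At 45 min of tunicamycin 55 (without tunicamycin replicate 2) to 1391 (without control replicate 1) were higher and 3 to 1108 lower, and at 135 min 0 to 49 were higher and 0 to 12 lower, the most without tunicamycin replicate 1.

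The median log2 fold change of the members was below 0 in all 4 of these comparisons, at -0.52 and -0.49 at 45 and 135 min of HS and -0.24 and -0.36 at 45 and 135 min of tunicamycin, while that of all genes lay between -0.03 and 0. All share the control samples. The lowest step medians were those of the luminal face (-1.29) and the cytosolic face (-1.26) at 45 min of HS. With the offset for GC content, the medians of the members were -0.50 and -0.46 at 45 and 135 min of HS, and -0.25 and -0.30 at 45 and 135 min of tunicamycin. Without the 4 libraries that follow GC content, the medians at 45 and 135 min of HS were -0.13 and -0.29, and that at 135 min of tunicamycin was -0.25. The value at 45 min of HS rests on HS replicate 3 alone. At 135 min, HS replicate 2 and tunicamycin replicate 1 were left out. In these 4 libraries 19 of the 40 members were lower than in every one of the other 14, with transcript GC contents of 36.6% to 53.7%, and 1, Prkcsh, was higher. That is 47.5% and 2.5% of the members, against 13.6% and 2.76% of all genes tested. Alg14 was the clearest case, with 0.377 to 1.53 RPKM in the 4 libraries and 4.68 to 15.5 RPKM in the others. The summed level of the 40 genes was 696 to 833 RPKM in the 4 libraries and 914 to 1098 RPKM in the other 8 samples of these groups.

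**Figure D4:**
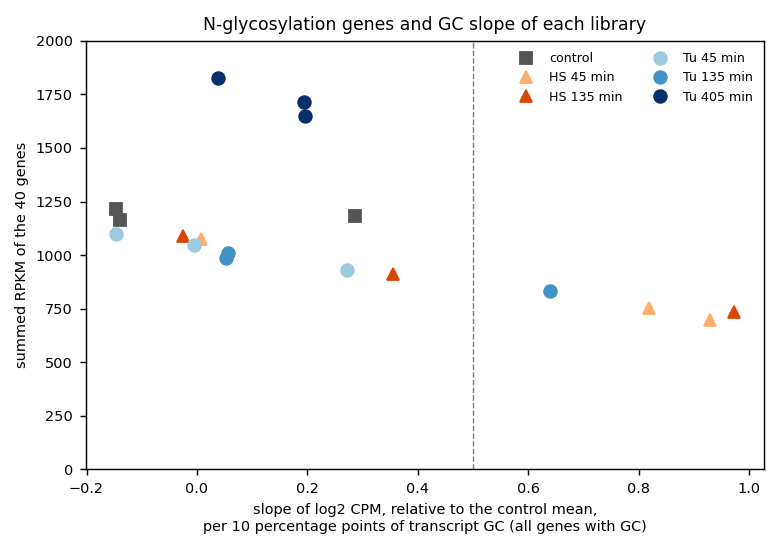
Summed RPKM of the 40 genes (y axis) against the slope of log2 CPM, relative to the control mean, per 10 percentage points of transcript GC content over all genes (x axis), with 1 point per sample, colored by group. The 4 samples right of the dashed line at 0.5 hold 696 to 833 RPKM, and the 3 at 405 min of tunicamycin hold 1648 to 1825 RPKM.

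The member with the smallest p in each of these 4 comparisons, named after the values were seen, was lower than the control. Dpm2, a subunit of dolichol phosphate mannose synthase, had 49.6, 41.5 and 40.9 RPKM in the controls and 29.1, 13.0 and 14.6 RPKM at 135 min of HS (log2 fold change -1.08, edgeR adjusted p = 0.0588). All 3 HS samples lay below all 3 controls. Mpi had 14.3, 12.7 and 12.1 RPKM at 45 min of tunicamycin, also below all 3 controls (log2 fold change -0.65, edgeR adjusted p = 0.0666), and 7.34, 4.196 and 13.1 RPKM at 45 min of HS (log2 fold change -1.11, edgeR adjusted p = 0.227). Tusc3 had 9.75, 11.1 and 12.1 RPKM at 135 min of tunicamycin against 17.4, 19.99 and 25.3 RPKM (log2 fold change -0.87, edgeR adjusted p = 0.102). At 135 min of HS, Mpdu1 and Mpi were also near the threshold, with log2 fold changes of -0.72 (edgeR adjusted p = 0.0601) and -1.20 (edgeR adjusted p = 0.0684). So was Alg6, a gene of low level, with the lowest log2 fold change of the members there (-2.02, edgeR adjusted p = 0.0702). It had 0.319 ± 0.237 RPKM against 1.42 ± 0.381 RPKM in the control (SD, n = 3), and the samples did not overlap. Gmppa was the nearest to a call among members with higher levels, with 27.3, 25.4 and 28.1 RPKM at 45 min of tunicamycin, above all 3 controls (log2 fold change 0.42, edgeR adjusted p = 0.0859), and it is the member that DESeq2 called higher there.

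Tunicamycin and HS were also set against each other at 135 min. 0 of the 40 members were called in either direction (edgeR), where 0.817% of all genes were higher and 1.3% lower under tunicamycin. Unadjusted p-values under 0.05 were found for 5 members with higher and 2 with lower levels, against 1241 and 1302 of the 12731 genes tested. DESeq2 called 3 members higher and 1 lower, against 4.25% and 5.62% of all genes. The median log2 fold change of the members was 0.15, against 0.03 for all genes, and it was -0.11 without HS 135 min replicate 2. Total counts in place of TMM gave 275 higher and 209 lower calls over all genes, against 104 and 166. When single samples were left out, 0 to 91 genes were called higher and 0 to 273 lower, the most without HS replicate 1.

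Beyond the 40 members, 32 further genes of N-glycan supply, transfer and processing were measured. At 405 min of tunicamycin 11 of them (34.4%) rose and 7 (21.9%) fell relative to the control, against 23.3% and 23.5% of all genes. Their median log2 fold change was 0.15. Calr, the ER chaperone calreticulin that binds glucose-bearing glycans, had 678 ± 148 RPKM in the control and 3100 ± 182 RPKM at 405 min (log2 fold change 2.29, edgeR adjusted p = 6.05e-05). Engase, a cytosolic glycosidase that removes N-glycans, had 0.599 ± 0.0459 and 1.66 ± 0.0412 RPKM (log2 fold change 1.56, edgeR adjusted p = 0.000169). Mgat3, the Golgi enzyme that adds the bisecting N-acetylglucosamine, fell from 5.0 ± 0.35 to 1.44 ± 0.149 RPKM (log2 fold change -1.71, edgeR adjusted p = 7.29e-05). It was also called lower at 45 min of tunicamycin (log2 fold change -0.76, edgeR adjusted p = 0.0251), but not at 135 min (log2 fold change -0.23, edgeR adjusted p = 0.499). Of 13 genes that process N-glycans in the Golgi, 5 fell (Man2a1, Mgat1, Mgat3, Mgat5 and B4galt1) and 2 rose (Mgat2 and Mgat4b). Of 4 further genes of the oligosaccharyltransferase, Ostc and Krtcap2 rose, and of 5 further genes of sugar supply, Gfpt2, Nagk and Renbp rose. Of 3 further genes of dolichol and assembly, Dolk, the dolichol kinase, fell (log2 fold change -0.49, edgeR adjusted p = 0.00891) and 0 rose. Of 4 further genes of trimming, Calr and Mogs rose, and Uggt2, the relative of Uggt1, fell (log2 fold change -0.54, edgeR adjusted p = 0.022).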

How the data were processed

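mRNA-seq libraries of 18 samples in 6 groups of 3 were used, with groups taken from the sample labels. Poly(A) RNA was sequenced on an Illumina instrument, and the authors aligned reads to mm9 and analysed them against RefSeq on the DNAnexus platform. The aligner, the counter and the use of strand are not given in the sources used here. The study's methods describe more than 1 library preparation, and which sample had which is not given. The authors deposited, per gene, an estimated count of reads that is not normalized, with 17.1% to 20.1% of the values under 100 not whole (tolerance 0.01). The authors also deposited RPKM, a score (RPKM centred and scaled within the library) and a signal (RPKM divided by its root mean square). Only counts were tested, and RPKM is printed.

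Counts were joined by gene name and rounded. The 12731 genes with at least 1 read in all 18 samples entered edgeR 4.0.16 (R 4.3.3), fitted on the 6 samples of a comparison (TMM, quasi-likelihood test, Benjamini-Hochberg over all genes, called at an adjusted p under 0.05). Standard errors come from the fold change and its F statistic, and intervals from the t distribution of the fit. A level of 3 reads is 0.0451 to 0.0898 CPM, which covers counting error only. The code was tested on simulated data. No replicates were alike enough to be 1 library. Transcript GC content came from the longest GENCODE protein-coding transcript of a symbol on the same build, for 12034 of the genes tested and all 40 members. Promoter windows came from RefSeq (GRCm38.p6).

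The members and the lists were chosen with earlier results of these data known. Values by sample are given for Dpagt1, for the 2 members of each step with the smallest p at 405 min of tunicamycin, and for those called in 2 or more comparisons with the control (none). Others are named where called, and values by sample of Gnpnat1, Mpi, Srd5a3, Stt3a, Stt3b, Dpm2, Tusc3 and, at 45 min of tunicamycin, Gmppa are outside this rule and were added after the values were seen. Of the 34 further pathway genes sought, 32 were measured, and Ost4 and Tmem258 are not analysed here. Alternatives were DESeq2 1.42.0 (size factors, and its Wald test), total counts without TMM, no filter, a replicate block, 1 surrogate variable by sva 3.50.0, a joint fit of the 6 groups and leaving out each sample. A GC offset and a fit without the 4 libraries that follow GC content were chosen after seeing the data. Replicate numbers in the labels paired the samples only for tunicamycin at 135 min against the control, by the correlation of same-numbered deviations (0.188 to 0.283). There the fit without the block called 0 members, and 16 higher and 1 lower of all genes. With the block 0 members and 0 of all genes were called, so that no member had a call that the block could remove. Figures were drawn with matplotlib 3.10.9 in Python 3.11.15.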

Additional observations from a re-analysis of the deposited data

Results flagged for a closer look

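Levels at 405 min of tunicamycin differed from those at 135 min, in a direct test of the 2 times, for 26 of the 40 members, all of them higher at 405 min. For 6 of these the comparison with the control at 405 min was not called, and the values of both comparisons, which share the samples at 405 min, are set side by side. Alg12 had a log2 fold change of 2.03 against 135 min and 1.24 against the control, Alg6 0.74 and -0.12, Dpm1 0.61 and 0.58, Dpm3 0.71 and 0.11, Stt3b 0.52 and 0.01, and Tusc3 0.60 and -0.24. At 135 min against the control, none of the 6 was called, with edgeR adjusted p-values from 0.102 for Tusc3 upward. Alg6, Dpm3 and Stt3b each lost the call against 135 min with the replicate block, in the shared fit and in several fits that left out a sample. Dpm1 lost it with the block and in 3 of the 6 fits that left out a sample, and Tusc3 in the shared fit, whereas Alg12 kept it in all alternatives run. No test for outlying samples was run within groups of 3. The 4 libraries that follow GC content were set apart by their slope, and each sample was left out in turn.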

How the results depend on the processing

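At 405 min of tunicamycin against the control, 18 to 26 members were called higher over all 14 alternatives, where 15.8% to 31.6% of all genes were. Of the 22 members called in the analysis reported, 15 were called in each alternative. Of the other 7, Man1b1 lost its call in 8 alternatives, Pgm3 in 3, and Alg5, Dhdds, Dpagt1, Nus1 and Prkcsh in 1 each. Members called lower numbered 1 with total counts without TMM, where 26.8% of all genes were called lower. When single samples were left out, they numbered 4 without control replicate 1 (30.5% of all genes) and 0 in the other fits (16.1% to 21.5%). At 405 against 135 min, 19 to 35 members were called higher, against 13.3% to 32.2% of all genes. The replicate block gave 21 members higher at 405 min against the control (21.1% of all genes) and 19 against 135 min (14.2%), and 0 members called in the other comparisons. In those it called 0.165% of all genes higher and 0.0% lower at 45 min of tunicamycin, and elsewhere 0.0% in either direction. Outside tunicamycin at 135 min against the control, the lowest correlation of same-numbered samples ran from -0.754 to -0.087, not every sample was closest to its own number, and the numbers were not taken as pairs.

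The counts of 0 depended on the fit, and the cause was not tested. The shares of all genes called higher and lower in the same fits follow in brackets. With 1 surrogate variable, the members called higher and lower numbered 0 and 3 at 45 min of HS (4.38% and 4.53%), 4 and 13 at 135 min of HS (19.2% and 21.2%), 2 and 10 at 45 min (13.2% and 12.4%) and 0 and 7 at 135 min (10.1% and 11.6%) of tunicamycin, and 9 and 4 for tunicamycin against HS at 135 min (16.9% and 17.6%). With DESeq2's Wald test they were 0 and 5 at 135 min of HS (9.68% and 7.28%), 1 and 3 at 45 min (7.63% and 6.84%) and 0 and 3 at 135 min (2.58% and 2.64%) of tunicamycin, and 3 and 1 for tunicamycin against HS (4.25% and 5.62%). The shared fit gave 0 and 5 at 45 min of HS (7.27% and 3.3%), 1 and 7 at 135 min of HS (14.4% and 11.1%), and 3 and 2 for tunicamycin against HS (6.07% and 7.84%). Total counts without TMM gave 0 and 1 at 135 min of HS (3.91% and 3.35%), 1 and 0 at 45 min of tunicamycin (6.9% and 1.41%), and 1 and 0 for tunicamycin against HS (2.16% and 1.64%), with the median of all genes at -0.19, 0.10 and 0.18. The GC offset gave 0 and 6 at 135 min of HS (11.4% and 9.77%), 0 and 5 at 45 min (8.44% and 7.59%) and 0 and 1 at 135 min (1.5% and 1.05%) of tunicamycin, and 2 and 1 for tunicamycin against HS (5.27% and 6.74%). Without the 4 libraries that follow GC content, 0 and 2 were called at 135 min of HS (5.71% and 4.0%) and 2 and 1 for tunicamycin against HS (5.25% and 6.79%). The log2 fold change of Dpagt1 at 45 min of HS turned from -0.89 to 0.01, which rests on HS replicate 3 alone.

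Leaving out single samples gave 0 to 3 higher and 0 to 23 lower at 45 min of HS (3 and 23, with 21.5% and 23.9% of all genes, without replicate 3, which leaves the 2 libraries that follow GC content), 0 to 3 higher and 0 to 6 lower at 135 min of HS (3 and 6 without replicate 1, with 12.1% and 7.32%, and 0 and 2 without replicate 2), 0 to 1 higher and 0 to 6 lower at 45 min of tunicamycin (1 and 6 without control replicate 1, with 10.9% and 8.7%), and 0 to 1 in either direction for tunicamycin against HS (1 and 1 without HS 135 min replicate 1, with 0.715% and 2.14%). With 3 samples a group, modest changes of members such as Stt3a, whose replicates are far apart, could not be resolved.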
